A study of Drosophila melanogaster with 10 samples.

Results

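Rab GTPases are small membrane-bound switches that give each organelle of the secretory and endocytic routes its identity. An exchange factor (GEF) loads a Rab with GTP, the loaded Rab recruits effectors such as tethers and motor adaptors, and a GTPase-activating protein (GAP) ends the signal by hydrolysis. GDP-dissociation inhibitor (GDI) then takes the prenylated Rab off the membrane and returns it to the pool. The family members described here were the genes whose symbol starts with Rab followed by a digit, a hyphen or an X, which gave 32 genes of 15240 in the deposited table, covered by 66 of its 30551 transcript entries. All 32 were Rab GTPases by the names of the annotation. The fly Rab32, named ltd in the table, and the Rab regulators spelled with a small r or as Rabex-5 lie outside this definition.

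The series concerns the Polycomb group protein Polyhomeotic (Ph) and what its ability to polymerize does to chromatin in Drosophila S2 cells, a line derived from embryos. It holds 10 samples in 5 groups of 2 replicates, which are Ph-WT ChIP, Ph-ML ChIP, the input of each, and S2 RNA. Only the 2 S2 RNA libraries are described, and the remaining 8 samples were not analysed here. These libraries hold total RNA depleted of ribosomal RNA, from S2 cells labelled WT for genotype. The treatment text is the same for every sample of the series and gives 3 days with copper sulphate at 0.5 mM to induce protein expression, and by the methods of the study the S2 cells without a transgene went through it too. With 1 group there was no second condition, so the Rab genes are described within S2 cells and between the libraries. The study calls its RNA-seq replicates biological, and the labels do not describe their cultures.

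Expression is given as RPKM, read counts scaled to transcript length and library size. The level of a gene is the median over its transcript entries in each library. Library sizes recovered from the steps in the values were 37054213 reads for replicate 1 and 9495835 for replicate 2, a 3.90-fold difference. On a transcript of 1 kb, 3 reads amounted to 0.0810 and 0.316 RPKM in replicates 1 and 2, so low Rab genes were measured more firmly in replicate 1. The labelled cell type was checked against markers. Of 6 haemocyte markers, 5 reached a mean of 1 RPKM, and the summed level of the 6 was 125 and 117 RPKM in replicates 1 and 2. Most of it came from Pvr at 72.6 and 69.5 RPKM, while Hml and Pxn had means of 1.18 and 0.398 RPKM. The summed level of 6 neuronal markers was 3.19 and 3.99 RPKM, most of it from elav at 2.31 and 3.34 RPKM. That of 4 germ line markers was 6.52 and 5.61 RPKM, most of it from aub at 5.15 and 4.96 RPKM. For 4 muscle markers it was 1.05 and 0.658 RPKM, most of it from Mlp84B at 0.773 and 0.529 RPKM.

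Most of the Rab family was transcribed in S2 cells. Averaged over the libraries, 23 of the 32 genes were at 1 RPKM or more (71.9%), against 49.5% of all genes. At 5 RPKM or more there were 15 (46.9%), against 29.5% of all genes. A level of 0 in both libraries was found for 7 Rab genes (21.9%), against 11.2% of all genes. The family was thus spread to both ends of the scale, with a median of 4.46 ± 0.418 RPKM (SD of the library medians, n = 2) beside 0.919 ± 0.0948 RPKM for all genes. Of the 7 genes at 0, 5 were Rab9-like genes, whose values of 0 are uncertain for reasons given below. Counting only genes at 1 RPKM or more, the median was 7.24 ± 0.136 RPKM for 23 Rab genes and 6.33 ± 0.0722 RPKM for 7548 genes. These are descriptions, since 1 group of 2 libraries allows no test across samples. Summed over the family, Rab levels came to 311 and 347 RPKM in replicates 1 and 2. Rab1 and Rab11 held 33.7% and 34.1% of these sums, and the 7 highest genes held 69.7% and 70.0%.

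**Figure D1:**
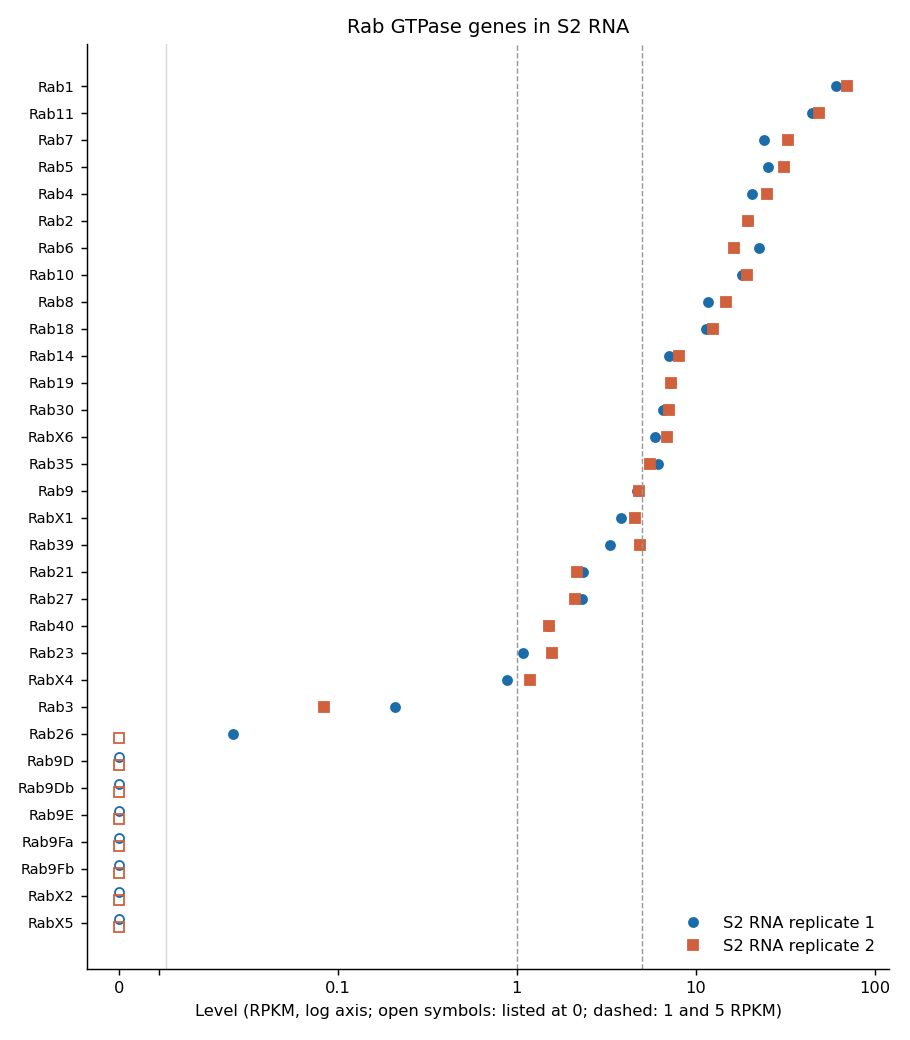
Level of each of the 32 Rab genes in RPKM (log axis), ordered by mean. Circles are S2 RNA replicate 1, squares replicate 2, open symbols are values listed at 0, and dashed lines mark 1 and 5 RPKM. Rab1 and Rab11 lie highest in both libraries, and 7 genes are at 0 in both.

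All 6 Rab genes of the route from the endoplasmic reticulum (ER) through the Golgi were above 5 RPKM, with means from 6.83 to 64.9 RPKM and a median of 15.7 RPKM. Rab1, which is required for transport from the ER to the Golgi, was the highest Rab gene in each library, with 60.3 and 69.5 RPKM in replicates 1 and 2 (64.9 ± 6.52, SD, n = 2). Rab2, which acts at the Golgi and in the delivery of cargo to lysosomes, had 19.4 RPKM in both libraries. These values put Rab1 clear of every other member, and Rab2 among the least variable of the higher ones. The Rab2 level is the median of 2 entries that moved in opposite directions, from 22.8 to 22.1 RPKM and from 16.1 to 16.7 RPKM. Rab6, known for traffic within the Golgi and back to the ER, had 22.4 and 16.4 RPKM, so that its range between libraries covered the values of Rab2. Rab18, linked to the ER and lipid droplets, had 11.4 and 12.4 RPKM. Rab19 and Rab30, both found at the Golgi, were the lowest of this role. Rab19 had 7.24 RPKM in each library, and Rab30 had 6.54 and 7.11 RPKM.

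The 7 Rab genes of early endocytosis and recycling all reached 1 RPKM, and 5 of them reached 5 RPKM (median 7.52, range 2.27 to 46.7 RPKM). Rab11, the Rab of the recycling endosome, was second in the family in both libraries, with 44.6 and 48.9 RPKM (46.7 ± 3.02, SD, n = 2). Rab5, which governs fusion of early endosomes, had 25.4 and 31.0 RPKM. Rab4, the Rab of fast recycling, had 20.6 and 24.9 RPKM. These 3 genes stood apart from the rest of the role, whose highest mean was that of Rab14, a Rab of endosomes and phagosomes, at 7.05 and 8.0 RPKM. Rab35, which acts in recycling to the plasma membrane, had 6.15 and 5.52 RPKM. RabX1, a fly Rab of the endosomal route, had 3.79 and 4.58 RPKM. Rab21, which acts in early endocytosis together with integrins in mammals, was lowest of this role at 2.36 and 2.18 RPKM.

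Of the 3 Rab genes of late endosomes and lysosomes, 1 exceeded 5 RPKM. Rab7, which directs late endosomes and autophagosomes to lysosomes, had 24.1 and 32.7 RPKM (28.4 ± 6.10, SD, n = 2). Its range contained both values of Rab5, so the order of these genes, which mark early and late endosomes, was not resolved. Rab9, which retrieves receptors to the Golgi in mammals, had 4.68 and 4.79 RPKM. Rab39, a lysosomal Rab, had 3.30 and 4.86 RPKM (4.08 ± 1.10, SD, n = 2). Both Rab genes of post-Golgi exocytosis exceeded 5 RPKM, and their ranges did not overlap. Rab10, which steers basement membrane secretion in fly epithelia, had 18.1 and 19.4 RPKM, and Rab8, which carries post-Golgi cargo to the plasma membrane, had 11.6 and 14.8 RPKM.

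The Rab genes of regulated secretion lay lower, with a median of 0.146 RPKM over 3 genes. Rab27, known for secretory granule and exosome release, was the 1 member above 1 RPKM, at 2.32 and 2.11 RPKM. Rab3, the Rab of synaptic vesicles, had 0.209 and 0.0842 RPKM from 29 and 3 reads. The exact Poisson 95% intervals of these reads, which cover counting error only, were 19.4 to 41.6 and 0.619 to 8.77. By reads, Rab3 lay above the 3-read limit in replicate 1 and at it in replicate 2. Such an interval lies above 0 for any count of 1 or more, so it does not separate Rab3 from background. Rab26, linked to secretory granules, had 0.0260 RPKM in replicate 1 but 0 in replicate 2, a pattern of 15.3% of all genes. The smallest whole reads that fit its 5 transcript entries ran from 1 to 4 in replicate 1.

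Outside these roles, Rab40, a Rab with a domain that joins ubiquitin ligases, had 1.52 and 1.51 RPKM. Rab23, known for planar cell polarity in flies, had 1.08 and 1.58 RPKM. The 4 RabX genes of little known role were split. RabX6 had 5.92 and 6.88 RPKM. RabX4 had 0.885 and 1.19 RPKM, on either side of 1 RPKM, while RabX2 and RabX5 were at 0 in both libraries. The 5 Rab9-like genes of the fly, Rab9D, Rab9Db, Rab9E, Rab9Fa and Rab9Fb, were also at 0 in both. For a transcript of 1 kb the limit that a count of 0 allows is 0.0810 RPKM in replicate 1, which lies below the level of Rab3 there. How reads that align to several places were counted is not stated, so a value of 0 for genes with close copies, as in the Rab9-like group, is uncertain.

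The order of the family was read from both libraries. Among the 25 Rab genes above 0 there were 24 neighbouring pairs, and in 11 of them the ranges of the replicates overlapped. In 7 of these the order also turned between the libraries, for Rab7 with Rab5, Rab2 with Rab6, Rab6 with Rab10, Rab14 with Rab19, RabX6 with Rab35, RabX1 with Rab39 and Rab40 with Rab23. In the other 4 the same gene was higher in each library, Rab8 above Rab18, Rab30 above RabX6, Rab21 above Rab27 and Rab23 above RabX4. The steps from Rab1 to Rab11, from Rab11 to Rab7, from Rab10 to Rab8 and from Rab18 to Rab14 were present without overlap.

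The libraries were next compared with each other, to find the error that attaches to each Rab level. Among Rab genes at 5 RPKM or more, 0 of 15 exceeded a 2-fold difference in log2(RPKM + 1) between the libraries, beside 0.512% of all genes at that level. Of these 15 Rab genes, 11 were higher in replicate 2 (73.3%), as were 58.2% of all genes at that level, and 4 were higher in replicate 1. The median of their log2 differences, replicate 2 minus replicate 1, was 0.13 with an SD of 0.21, beside 0.05 with an SD of 0.26 for all genes at that level. The spread of the Rab genes was thus of the size found across the table.

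Counting error alone did not cover the difference for 6 of the 25 Rab genes tested (24.0%), by a two-sided exact binomial test on recovered reads with Benjamini-Hochberg adjustment over 13476 genes. The same test called 8.72% of all genes, and 21.1% of genes at 5 RPKM or more, where 6 of 15 Rab genes were called. The test compares these libraries and not conditions. Of the 6 genes, 5 were higher in replicate 2 (5.38% of all genes, 14.6% of those at 5 RPKM or more) and 1 in replicate 1 (3.34% of all genes, 6.5% of those at 5 RPKM or more). Before adjustment, 9 of 25 Rab genes had a p under 0.05 (36.0%), beside 17.3% of all genes. Rab7 differed most among those higher in replicate 2, with 1233 reads in replicate 1 and 421 in replicate 2, a log2 difference of 0.43 (exact binomial adjusted p = 2.58e-05). Rab1 had 4139 and 1223 reads and a log2 difference of 0.20 (exact binomial adjusted p = 0.000425). Rab5 and Rab8 had log2 differences of 0.28 and 0.32 (exact binomial adjusted p = 0.00257 and 0.00938). Rab4 lay at the threshold, with a log2 difference of 0.26 (exact binomial adjusted p = 0.0497), and was not called when the libraries were scaled to the same median. Rab6 ran the other way, with 1527 reads in replicate 1 and 286 in replicate 2, a log2 difference of -0.43 (exact binomial adjusted p = 1.89e-05). Rab39 had a difference as large, 0.45, on 161 and 60 reads, and did not pass (exact binomial adjusted p = 0.129). When the transcript entry with the fewest reads represented each gene, 3 Rab genes were called, Rab1, Rab6 and Rab7.

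**Figure D2:**
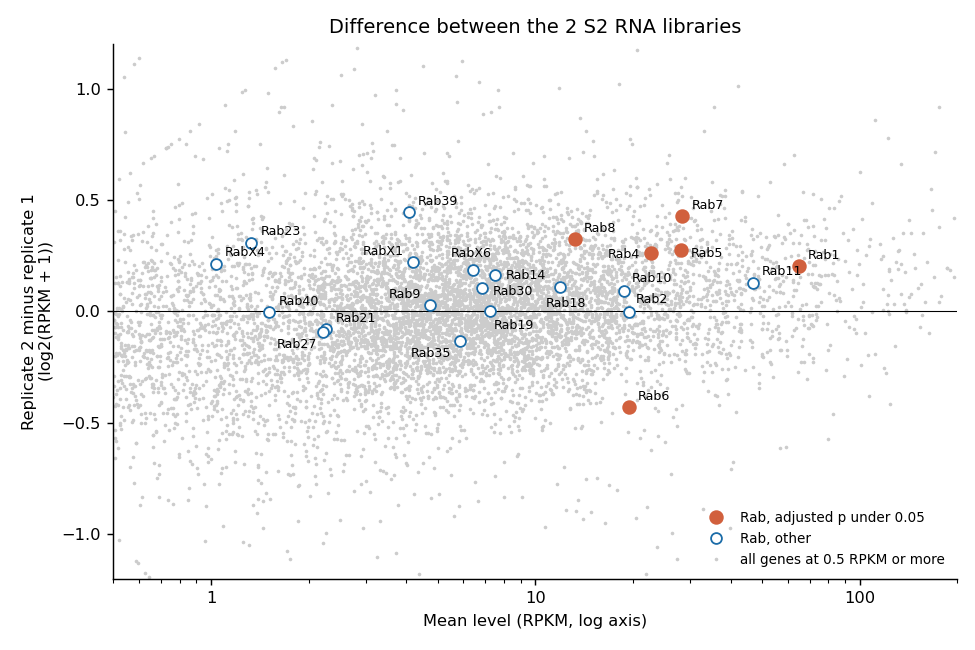
Difference in log2(RPKM + 1) between the libraries, replicate 2 minus replicate 1, against the mean level in RPKM (log axis). Filled symbols are the 6 Rab genes past an adjusted p of 0.05 in the binomial test, open symbols the other Rab genes, and grey points all genes at 0.5 RPKM or more within the axes. Rab7 and Rab39 lie highest at 0.43 and 0.45, and Rab6 lowest at -0.43.

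Differences between transcripts could be examined for the 16 Rab genes with 2 or more transcript entries, the other 16 having 1. Only Rab26, at its few reads, had entries more than 2-fold apart by mean RPKM, 1 of 16 genes beside 7.73% of all genes with 2 or more entries. Among well expressed members Rab35 had the widest spread. Its 4 entries ran from 4.49 to 7.03 RPKM in replicate 1 and from 3.99 to 6.30 RPKM in replicate 2, a 1.57-fold range of the means. The recovered reads behind them in replicate 1 were close, at 557 on the longest entry of 3348 bases and 527 on the shortest of 2024 bases, a 1.06-fold range of reads over a 1.65-fold range of length. Rab2 showed the same arrangement, with 22.8 and 22.1 RPKM for an entry of 1087 bases and 16.1 and 16.7 RPKM for an entry of 1712 bases. The shorter Rab2 entry had 917 reads in replicate 1 and the longer 1023. Rab14 had entries from 6.58 to 8.35 RPKM by mean, and the 9 entries of Rab5 lay between 23.6 and 29.3 RPKM by mean.

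Some entries could not be told apart at all. The 2 entries of RabX6 had the same values, 5.92 and 6.88 RPKM. Those of Rab19 had 281 reads in replicate 1 and 72 in replicate 2 on 1062 and on 1033 bases, and those of Rab40 had 90 and 23 reads on 1588 and on 1618 bases. Equal reads on unequal lengths were found in 2 of 15 Rab genes with 2 or more entries with reads (13.3%), and in 13.3% of such genes in the table. How reads shared by transcripts were counted is not stated, so the RPKM values of these entries are not separate measurements of isoforms. Recovered reads and lengths are the smallest whole numbers that fit, so a short entry can be listed with a fraction of its true reads and length.

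**Figure D3:**
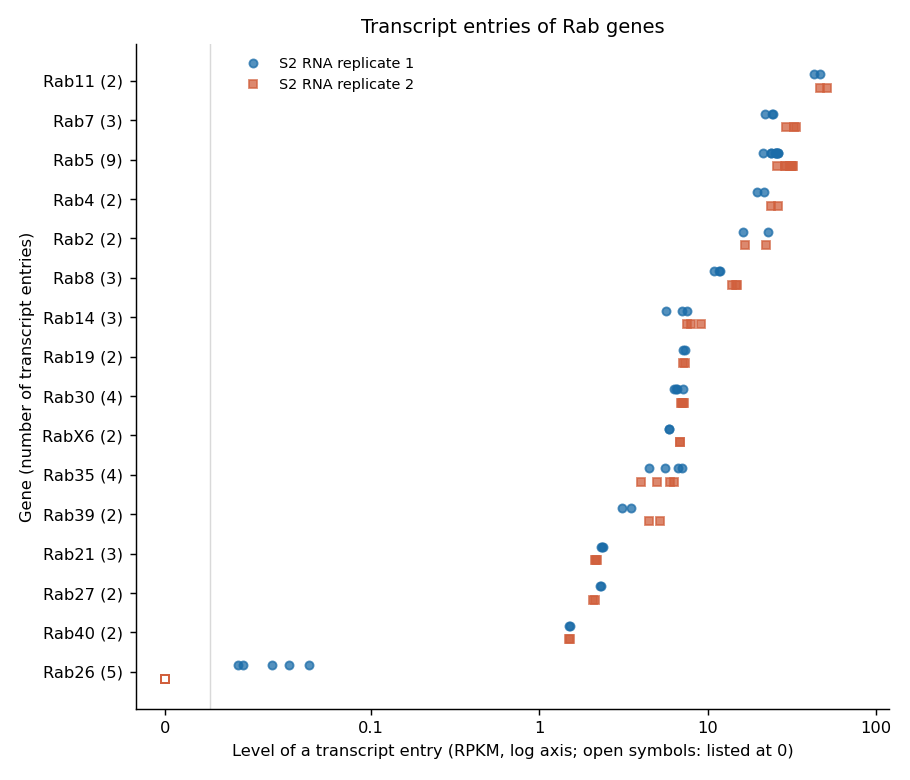
RPKM (log axis) of every transcript entry of the 16 Rab genes with 2 or more entries, with the number of entries in brackets. Circles are S2 RNA replicate 1, squares replicate 2, and open symbols are listed at 0. Rab35 spreads most among the expressed genes, from 4.49 to 7.03 RPKM in replicate 1.

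Genes that switch Rabs on and off or read their state were taken from 9 lists by role, which held 81 symbols, 79 of them with values. Rab genes spanned a wider range than any of these lists, with 32 genes beside 4 to 13 with values per list. A range grows with the number of members, and the lower end of the Rab range is 0. The list of synaptic and regulated secretion effectors also reached 0. The Rab median of 4.46 RPKM, or 6.83 RPKM over the 25 genes above 0, lay within the list medians from 4.43 to 7.73 RPKM, apart from the list of synaptic and regulated secretion effectors at 0.312 RPKM. Of the 79 genes, 9 passed the binomial test between libraries, 3 higher in replicate 2 (5.38% of all genes tested) and 6 in replicate 1 (3.34%). This share of 11.4% lay near the 8.72% of all genes tested. Calls were more frequent at higher levels, at 21.1% of genes at 5 RPKM or more, and the lists were not matched for level.

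The recycling machinery, which serves every Rab, was led by Gdi, the GDP-dissociation inhibitor, at 38.7 and 32.8 RPKM (exact binomial adjusted p = 0.00979). Rab1 and Rab11 were above Gdi in both libraries, and no other Rab gene was. Rep, which presents new Rabs for prenylation, had 7.37 and 8.65 RPKM, and the subunits of the prenylating enzyme, CG12007 and betaggt-II, had means of 7.45 and 5.02 RPKM.

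Pairs of a Rab and an exchange factor were chosen after their values were seen, so they give no general relation between them. In the pairs set side by side, most exchange factors lay below the Rab they act on. Of 13 GEF genes, 12 reached 1 RPKM (median 5.87 RPKM). Rab5 was 5.36 and 6.46 times the level of its exchange factor Rabex-5. Rab7 was 5.69 and 6.72 times Mon1 (CG11926), and 2.37 and 4.90 times Ccz1 (CG14980), the partners that together activate it. The wider span for Ccz1 went with its own difference between libraries, 10.2 and 6.67 RPKM (exact binomial adjusted p = 0.00161), opposite in sign to that of Rab7. Rab6 showed the reverse with Rgp1 (CG1116), one of its paired exchange factors in mammals and yeast, at 4.37 and 2.21 times its level, and Rgp1 itself had 5.13 and 7.43 RPKM (exact binomial adjusted p = 0.0172). The other factor of the pair, Rich, was closer between libraries, with Rab6 at 3.68 and 3.15 times its level. Rab10 was 2.19 and 2.33 times its exchange factor Crag.

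Rab8 and Rab21 were exceptions among these pairs. Rab8 was 0.863 and 1.21 times the level of strat (CG7787), its chaperone-like exchange factor and the highest GEF gene at 13.5 and 12.2 RPKM. Rab21 was 0.466 and 0.473 times its exchange factor Sbf. Among the other GEF genes, pcs, a Rab11 exchange factor, had 8.14 and 10.9 RPKM (exact binomial adjusted p = 0.00477), and rab3-GEF was lowest, at 0.0941 RPKM in replicate 1 and 0 in replicate 2 (29 and 0 reads, exact binomial adjusted p = 0.0278). All 9 TRAPP genes, subunits of the complexes that activate Rab1 and Rab11 in yeast and mammals, reached 1 RPKM. They ran from 2.10 RPKM for Trs33 (CG6196) and 4.86 RPKM for Bet5 to 6.06 for bru (brun), 8.08 for l(3)76BDm and 12.5 for gry. Rab1 was 11.8 and 12.4 times the level of the core subunit Bet3.

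GAP genes were all at 1 RPKM or more, 13 of 13, with a median of 4.95 RPKM. The highest, sky, acts on Rab35 in flies and had 18.8 and 19.1 RPKM, so that Rab35 was 0.327 and 0.288 times its level. The next were wkd at 13.2 RPKM and Tbc1d15-17 at 7.44 RPKM, and the lowest were Rab3GAP1 (CG31935) at 2.46 RPKM and TBC1D16 (CG5337) at 1.05 RPKM by mean. The GAP gene plx had 5.52 and 4.39 RPKM (exact binomial adjusted p = 0.0165). Rab3 was 0.0934 and 0.0314 times the level of Rab3GAP1, the catalytic subunit of its GAP, with 3 Rab3 reads in replicate 2. The exchange factor of Rab3, in contrast, was near 0 as Rab3 was.

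All 8 genes of the HOPS and class C tether list reached 1 RPKM (median 4.70 RPKM). The HOPS complex acts with Rab7, and Vps8 belongs to the related CORVET complex, which acts with Rab5. Levels ran from Vps8 (CG10144) at 2.54 and dor at 4.06 to Vps11 (CG32350) at 6.85, Vps16A at 8.60 and lt at 21.3 RPKM. All 8 exocyst genes did too (median 6.96 RPKM), from sec10 at 3.63 and sec6 at 4.64 to exo84 at 7.85, exo70 at 8.35 and sec8 at 11.5 RPKM. Rab11 was 8.38 and 9.62 times the level of its exocyst effector sec15. Golgins and Golgi effectors, which bind Rab1, Rab2 and Rab6, had 9 of 9 genes at 1 RPKM or more and a median of 7.10 RPKM. Grasp65, Golgin245 (CG3493) and GM130 were highest at 17.4, 12.6 and 12.3 RPKM, and Gmap and Golgin104 (CG4925) lowest at 3.24 and 3.21 RPKM. Golgin245 had 13.6 and 11.7 RPKM in the libraries (exact binomial adjusted p = 0.0134).

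Endosomal and motor effectors had 7 of 8 genes at 1 RPKM or more and a median of 4.43 RPKM. Rab11 was 2.33 and 2.66 times its effector Rip11, the highest of this list at 19.2 and 18.3 RPKM, and 10.9 and 11.4 times nuf, another Rab11 effector. Rab5 was 5.63 and 7.24 times its effector Rbsn-5. The other high genes of the list were ema at a mean of 8.03 RPKM and didum, the myosin V heavy chain, at 8.27 and 7.06 RPKM (exact binomial adjusted p = 0.0433), and Lrrk was lowest at 0.881 RPKM.

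The effectors of regulated secretion were low together with Rab3 and Rab26. Of 7 genes, 2 reached 1 RPKM. Rim, an active zone effector of Rab3, had a median of 0 over its entries in both libraries, with 1 read on its most-read entry in replicate 1. The vesicle protein gene n-syb had a mean of 0.0587 RPKM. Rab3 was 0.253 and 0.118 times its effector Rph, itself at a mean of 0.768 RPKM. In replicate 2 this ratio rests on 3 Rab3 reads. The exceptions were unc-13, a vesicle priming factor, at 6.94 and 8.13 RPKM (exact binomial adjusted p = 0.0025), and Caps, at a mean of 2.09 RPKM. No gene of these lists was tested against the Rab genes, and the pairs of a Rab with its partner were chosen after their values were seen.

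**Figure D4:**
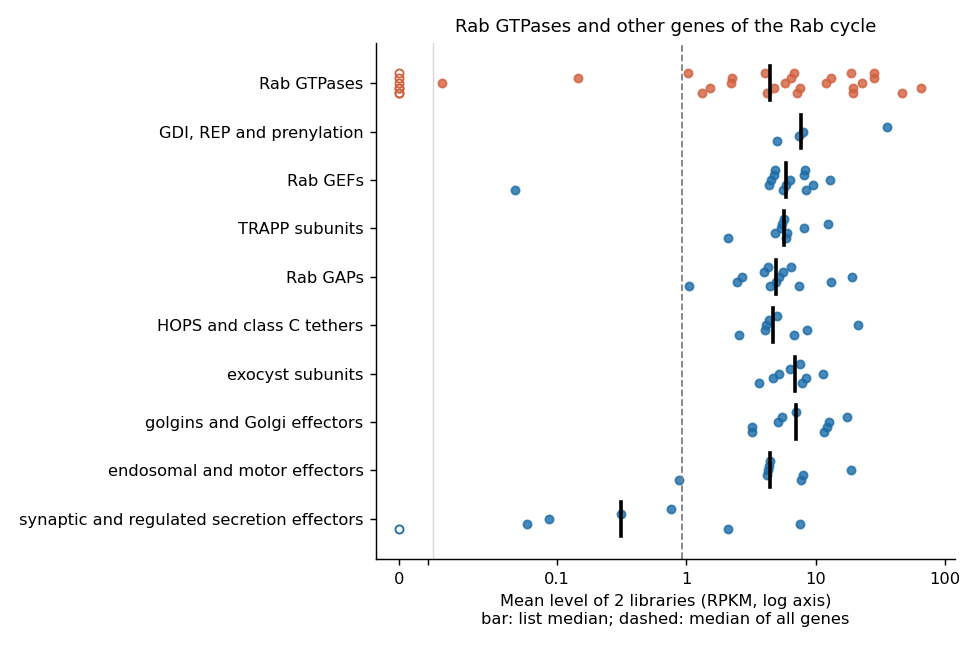
Mean level of the 2 libraries in RPKM (log axis) for each Rab gene and each gene of the 9 lists. Points are genes, open points are at 0, black bars are list medians, and the dashed line is the median of all genes at 0.919 RPKM. The highest Rab genes lie above every gene of the lists, and the effectors of regulated secretion have the lowest median at 0.312 RPKM.

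The surroundings of the Rab genes in the genome were read from the order of genes in an NCBI annotation (assembly Release 6 plus ISO1 MT). The files use another build, so the annotation served for names, order and overlaps alone. The 7 Rab genes at 0 had 12 distinct neighbours other than each other, of which 2 reached 1 RPKM, Hmr at 1.28 RPKM next to Rab9D and RpL23A at 166 RPKM next to RabX5. The median of these neighbours was 0.00784 RPKM. The 23 Rab genes at 1 RPKM or more had 46 neighbours, of which 34 reached 1 RPKM, with a median of 3.96 RPKM. The same contrast held across the table, where 9.27% of the neighbours of protein-coding genes at 0 reached 1 RPKM, and 68.7% of the neighbours of protein-coding genes at 1 RPKM or more. Rab9Fa and Rab9Fb were next to each other. Neighbours share a genomic region and are not independent, so no test was made.

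Rab26 lay apart from both patterns. Its neighbours were Pc, which encodes the Polycomb protein, at 2.61 and 2.35 RPKM, and CG7338 at 10.7 and 10.0 RPKM, while Rab26 had a mean of 0.0130 RPKM. Rab3 had neighbours at 2.11 RPKM (stan) and 0.0464 RPKM (CG12309). Among expressed members, Rab35 had a mean of 5.83 RPKM beside CG9572 at 0.00809 RPKM, and Rab1 lay beside ETHR at 0.117 RPKM, so that a level near 0 next to an expressed Rab gene also occurred.

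In the same annotation 12 of the 32 Rab genes overlapped another gene (37.5%), as did 47.1% of protein-coding genes with values. For Rab4 the partner was Dcr-2, with a mean of 16.3 RPKM beside 22.7 RPKM for Rab4. For Rab19 it was Arl5 (CG7197) at 4.36 RPKM, for RabX4 it was Kaz (CG31357) at 3.46 RPKM, and for RabX6 it was Vti1 at 4.52 RPKM. Rab1 and Rab26 each overlapped an antisense RNA gene, and Rab14 a long noncoding RNA gene, all without values. Overlap was taken from whole gene spans, introns included, and exons were not compared. Whether reads were counted by strand is not stated. Where transcripts of these Rab genes and their partners share a stretch, reads there may not be told apart. Of the Rab genes listed at 0, Rab9E, Rab9Fa, Rab9Fb and RabX2 had protein-coding partners at 0.0492 RPKM or less.

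**Figure D5:**
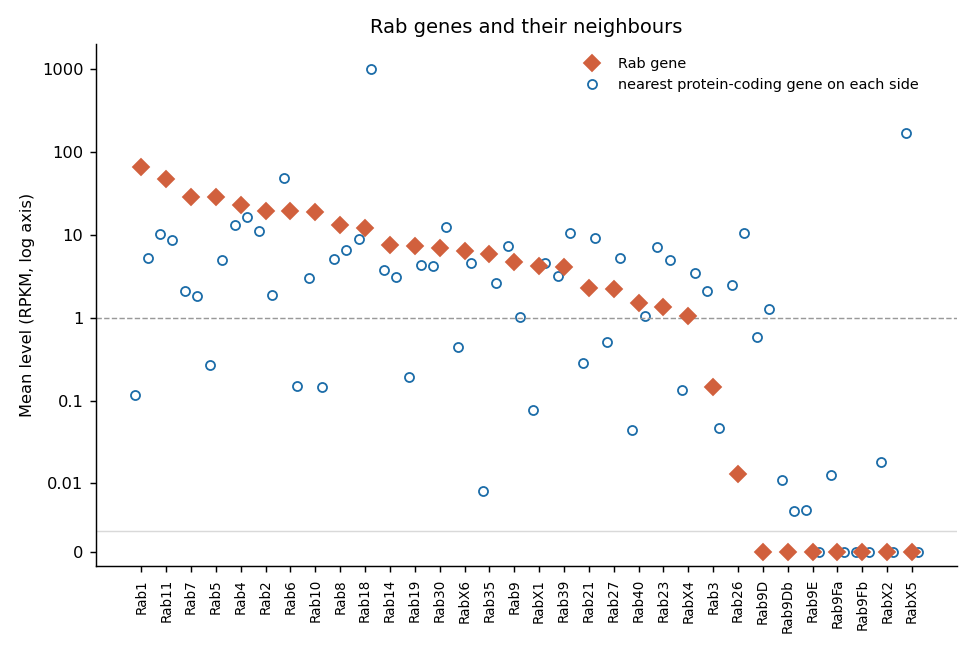
Mean level in RPKM (log axis, with 0 below the grey line) of each Rab gene (diamonds) and of the nearest protein-coding gene with values on each side (circles), with Rab genes ordered by level. The dashed line marks 1 RPKM. To the right, the 7 Rab genes at 0 have 2 distinct neighbours above this line.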

How the data were processed

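The authors sequenced ribosomal-RNA-depleted RNA of S2 cells as single-end reads and deposited RPKM values per RefSeq transcript, with the replicates kept apart. The submitters' processing notes name TopHat2 2.4, BWA 0.5.9-r16 and build dm3. The program that made the RPKM values, and how it counted reads shared by transcripts, aligned to several places or by strand, are not given in the sources used here.

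Rab genes, roles, lists and pairs were chosen with earlier results of these data known. Gene levels were medians over transcript entries, then means over the libraries. Fold differences used log2(RPKM + 1). Library sizes and reads were recovered from the steps in the RPKM values: whole reads followed for 98.4% of 23661 entries above 0 in both libraries, and lengths were whole (within 0.002 bases) for 76.5% of 16315 entries, against 38.2% at double the library size. Where a gene could not be resolved (82 genes above 0), it was not tested. The binomial test used the entry with the most reads, with an expected share of 20.4% for replicate 2 and a threshold of 0.05. Intervals and limits cover counting error only. A lost common factor of reads and length makes the test conservative.

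The text names every Rab gene and, of each list, the 3 highest and 2 lowest genes and any past the threshold, except 1 gene that is not reported here. List symbols were matched through RefSeq identifiers, and Bicdr and FYCO1 had no match. Alternatives were the entry used, scaling, pseudocount, minimum level, each library alone and leaving out regulators that the name pattern might match. Python 3.11.15, NumPy 2.4.6, SciPy 1.17.1, pandas 2.3.3 and Matplotlib 3.10.9 were used.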

Additional observations from a re-analysis of the deposited data

How the results depend on the processing

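No paired analysis was possible because values were analysed for 1 group of 2 libraries. Of 75 alternatives over 15 results, 62 moved the value by less than the spread between libraries (for counts, by less than 1.5 times) and 13 by more. Some of the 62 could not move. Every member was a Rab GTPase, so leaving out regulators that the name pattern might match changed nothing. The filter at 1 RPKM likewise dropped no gene from lists whose genes all reached it. The count of 62 is therefore not a measure of robustness. The Rab median was 7.24 RPKM with the 23 genes at 1 RPKM or more, and the median of the regulated secretion effectors 4.81 RPKM with their 2 such genes, since both filters drop the genes near 0. The entry with the fewest reads gave 3 Rab genes that differed between libraries, against 6, and across all genes 525 higher in replicate 2 and 300 in replicate 1, against 725 and 450. Scaling the libraries to the same median gave 5 Rab genes. The number of Rab genes with transcript entries more than 2-fold apart was 0 among those at 1 RPKM or more. The highest entry per gene gave 5.32 RPKM for GAP genes and 4.67 RPKM for endosomal and motor effectors.

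With each library alone, the Rab median ran from 4.24 to 4.83 RPKM, Rab genes at 1 RPKM or more from 22 to 23, and those with transcript entries more than 2-fold apart from 0 to 1, the 0 being without replicate 1, where Rab26 had no reads. The list medians ran from 4.83 to 4.96 RPKM for GAPs and 4.62 to 4.92 for HOPS and class C tethers. Those of the exocyst ran from 6.59 to 6.72 RPKM, and those of endosomal and motor effectors from 4.52 to 4.63 RPKM. The medians over the mean levels lay outside these last ranges, at 6.96 RPKM for the exocyst and 4.43 RPKM for the effectors. With 2 libraries of 3.90-fold different depth, levels at or under the 3-read limit of replicate 2 rest on replicate 1. Rab3 sat at that limit with 3 reads in replicate 2, and Rab26 was under it with no reads there.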
